A study of Oryza sativa with 12 samples.

Results

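Roots of an OsPEP1 RNAi line and of wild type rice were compared while both were exposed to added PEP1. The 6 libraries with added PEP1, of 12 in all, formed the comparison, and membership was set by the sample labels alone. The series consists of RNA sequencing counts from roots of 7-day-old seedlings of Oryza sativa, cultivar XS134. Wild type plants and RNAi line 1 against OsPEP1 each received 1 µM PEP1 or ethanol, with 3 libraries in each of the 4 groups. Values below are for the libraries with PEP1, unless the ethanol groups are named. RNA interference lowers a transcript through small RNAs that match it. The labels name 1 line, and they give neither the promoter of the RNAi construct nor the nature of PEP1 or the length of exposure. No locus ID in the sources used here is tied to OsPEP1, so its own transcript could not be checked. Whether the 3 libraries of a group are separate cultures is not stated in the labels, and the p-values therefore reflect a spread that may be purely technical.

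The 6 libraries held between 15368736 and 21317008 counts. Of 57265 features in the table, 25602 had enough counts to be tested. On the first principal component of the 6 libraries (54.9% of the variance) the wild type lay between -95.8 and -42.2 and the RNAi line between 24.2 and 106. Replicate 2 lay farthest out in each group. RNAi replicate 2 also had the highest summed level of 5 photosynthesis markers, at 753 CPM (counts scaled to the library size), against 57.4 and 96.2 CPM in the other RNAi libraries and 81.7 to 190 CPM in the wild type. The same library had the lowest summed level of 6 markers of dividing cells, at 55.9 CPM, where the other 5 libraries had 110 to 200 CPM. All 6 root markers, among them the silicon transporters Lsi1 (LOC_Os02g51110) and Lsi2 (LOC_Os03g01700), had reads in every library, though the nitrate transporter NRT2.1 (LOC_Os02g02170) had 0.0594 CPM, below the level of 3 counts, in wild type replicate 2. Their summed levels were 2035 to 5063 CPM in the wild type and 2661 to 3616 CPM in the RNAi line.

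Jasmonate, ethylene and cytokinin are plant hormones whose signalling is read in transcript data through genes that respond to them. Jasmonate removes JAZ proteins of the TIFY family, which hold back its target genes, and the JAZ genes are themselves induced by jasmonate. Cytokinin induces the type-A response regulators, which damp cytokinin signalling. WRKY proteins are transcription factors, many of which act in plant defence. Transporters of the ZIP family carry zinc, and heavy metal ATPases pump metals such as copper across membranes. Plasma membrane aquaporins of the PIP family carry water.

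Under PEP1 the genotypes differed in 679 of 25602 features tested (2.65%), by edgeR's quasi-likelihood test at a Benjamini-Hochberg adjusted p below 0.05. In the RNAi line 388 features were higher (1.52%) and 291 were lower (1.14%). The fitted differences were mostly large. Among the 679, the median absolute log2 difference was 4.29, with quartiles at 1.57 and 7.99. At least 32-fold differences were found in 310 features, of which 162 were higher and 148 lower in the RNAi line. A further 158 differed by 4- to 32-fold, 132 by 2- to 4-fold and 79 by less than 2-fold. These fold classes and medians, here and below, rest on fitted log2 differences. In features without a count in one group, fitted sizes can exceed what the counts show. The limits from the counts went down to 13.4-fold for features read in wild type only and 11.3-fold for those read in RNAi only. In all 679 the 3 RNAi libraries lay outside the range of the 3 wild type libraries, as they did in 4097 features overall (16%). At an unadjusted p below 0.05 there were 2351 features, and the median log2 difference of all features tested was 0.00. The count was 449 without wild type PEP1 replicate 1 and 408 without both libraries numbered 2.

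The same genotypes were compared under ethanol in 6 other libraries, where 971 features passed (3.79%). Of the 679 features, 520 also passed under ethanol, and each of the 520 had the same direction there (290 higher and 230 lower in the RNAi line). These are 76.6% of the features passing under PEP1 and 53.6% of those passing under ethanol. Their median absolute log2 difference was 6.31 under PEP1 and 6.45 under ethanol. The shared portion was larger among large differences. It was 93.2% for differences of at least 32-fold and 50.6% for those under 2-fold.

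The remaining 159 features, 98 higher and 61 lower in the RNAi line, passed under PEP1 and missed the threshold under ethanol. Their median absolute log2 difference was 1.48 under PEP1 and 0.59 under ethanol, and 144 of them had the same sign in both, as did 56.5% of all features tested. In 90 of the 159 the unadjusted p under ethanol was below 0.05, as it was in 14.1% of all features. Missing a threshold under ethanol does not show a dependence on PEP1, and the test of that dependence, the interaction, was passed by 1 feature in edgeR (0.00391%). Leaving out 1 library gave 0 to 6 features, and DESeq2 called 95, so the count depends on the test. The unadjusted interaction p was below 0.05 in 5.28% of all features and in 71 of the 159, a set whose selection itself favours a low interaction p. Across all 25602 features the log2 differences under ethanol and PEP1 had a correlation of 0.79. Genes are not independent replicates, and the same RNAi line and wild type stand behind both sets of libraries.

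**Figure D1:**
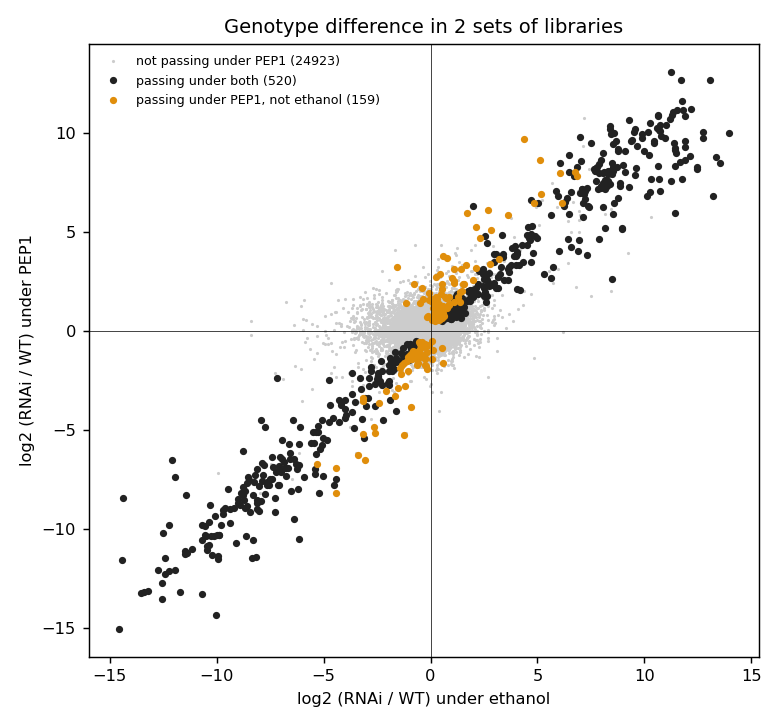
Log2 difference, RNAi line over wild type, with ethanol (horizontal) and with PEP1 (vertical), 1 point per feature tested. The 520 features passing under both lie along the diagonal out to the largest differences, and the 159 passing under PEP1 but not ethanol lie mostly nearer the centre.

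The largest differences belonged to features read in one genotype and not in the other. With PEP1, 97 features had at least 10 counts in each wild type library and no count in any RNAi library. The reverse held for 89 features. The wild type mean level of the 97 ranged from 0.664 to 232 CPM with a median of 3.12 CPM, and the RNAi mean level of the 89 ranged from 0.592 to 59.0 CPM with a median of 2.68 CPM. A limit of 3 counts over the 3 empty libraries was set by convention for a count of 0. Against it the median difference was at least 63.1-fold for the 97 and at least 51.4-fold for the 89. Folds given as at least a value, here and below, rest on that limit. It is not a strict minimum, and it covers counting error only. In the ethanol libraries, 72 of the 97 and 66 of the 89 (74.2% of each) were again without a count in the empty genotype and at 10 counts or more in each library of the other. No feature of the 97 had more than 6 counts in the 3 RNAi ethanol libraries together, and none of the 89 had more than 1 in the wild type ethanol libraries. Without both libraries numbered 2 the features read in one genotype were 116 and 106. The rule then asks about fewer libraries, so these counts could not have fallen.

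The largest rises without a gene symbol were LOC_Os08g14195 on chromosome 8 and LOC_Os10g04674 on chromosome 10. LOC_Os08g14195 had 60.5, 65.6 and 50.8 CPM in the RNAi PEP1 libraries and no count in the wild type PEP1 libraries, which makes it at least 1130-fold higher (edgeR adjusted p = 4.88e-06). LOC_Os10g04674 had 46.3, 50.2 and 37.6 CPM against no count, at least 856-fold higher. Under ethanol these loci had 64.5 ± 19.6 and 23.0 ± 3.29 CPM in the RNAi line (mean ± SD, n = 3), with 1 count in all for the first and none for the second in the wild type.

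The largest falls were Novel00347, which carries a serial number in place of a rice locus ID, and LOC_Os06g21820 on chromosome 6. Novel00347 had 238, 198 and 259.6 CPM in the wild type PEP1 libraries and no count in the RNAi PEP1 libraries, at least 4690-fold lower. LOC_Os06g21820 had 160, 87.5 and 172 CPM against no count, at least 2833-fold lower. In the RNAi ethanol libraries the first had no count and the second had 3 counts in all. What these features encode is not given in the sources used here.

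Passing loci, of any size of difference, were unevenly spread over the chromosomes. Of 24628 tested loci with a rice locus ID, 599 passed (2.43%). On chromosome 11 it was 131 of 1453 tested loci (9.02%), of which 91 were higher and 40 lower in the RNAi line. On chromosome 12 it was 80 of 1381 (5.79%), of which 31 were higher and 49 lower. The other 10 chromosomes had between 0.984% (34 of 3457 on chromosome 1) and 3.04% (57 of 1877 on chromosome 7). Chromosomes 11 and 12 together held 35.2% of the passing loci, and 40% without both libraries numbered 2. In the ethanol libraries, the highest shares were on the same chromosomes, with 10.4% on chromosome 11 and 6.08% on chromosome 12, against 2.08% to 4.69% elsewhere. Among differences under 32-fold the shares were 4.34% on chromosome 11, 3.11% on chromosome 12 and at most 1.73% elsewhere.

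**Figure D2:**
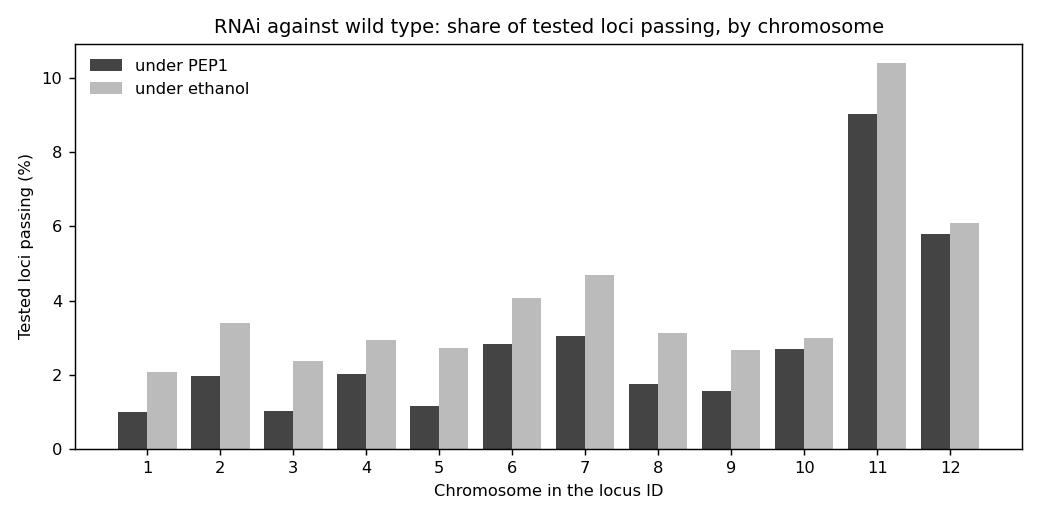
Share of tested loci that passed between the genotypes (vertical, percent), by the chromosome in the locus ID (horizontal), under PEP1 (dark bars) and under ethanol (light bars). Chromosome 11, at 9.02% and 10.4%, and chromosome 12, at 5.79% and 6.08%, stand above the other 10.

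Within chromosomes the loci fell into blocks. The tested loci were cut into 488 blocks of 50 in the order of their IDs. No locus passed in 272 blocks, and 36 blocks (7.38%) had 5 or more and together held 300 of the 599 passing loci (50.1%). The densest block, ranks 451 to 500 of the 1381 tested loci of chromosome 12, had 24 passing loci, 9 higher and 15 lower in the RNAi line, of which 18 also passed under ethanol. On chromosome 11 the block of ranks 1001 to 1050 had 17, all of which also passed under ethanol. Outside chromosomes 11 and 12 the densest block lay on chromosome 6 at ranks 901 to 950, with 13 passing loci, 10 of them lower in the RNAi line.

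Some neighbouring loci differed in one direction. There were 22 runs of at least 3 consecutive tested loci that passed in the same direction, 12 higher and 10 lower in the RNAi line. These runs held 92 of the 599 passing loci, and 12 of the 22 were on chromosomes 11 and 12. The longest held 7 loci, all lower in the RNAi line, at ranks 485 to 491 of chromosome 12, and 6 of the 7 passed under ethanol. A run of 5 loci higher in the RNAi line, at ranks 479 to 483, lay just before it. Runs of 6 loci were found on chromosome 6 (lower in the RNAi line) and on chromosomes 10 and 11 (higher). Neighbouring loci can be copies of one gene family that share reads, and such loci would not be independent.

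**Figure D3:**
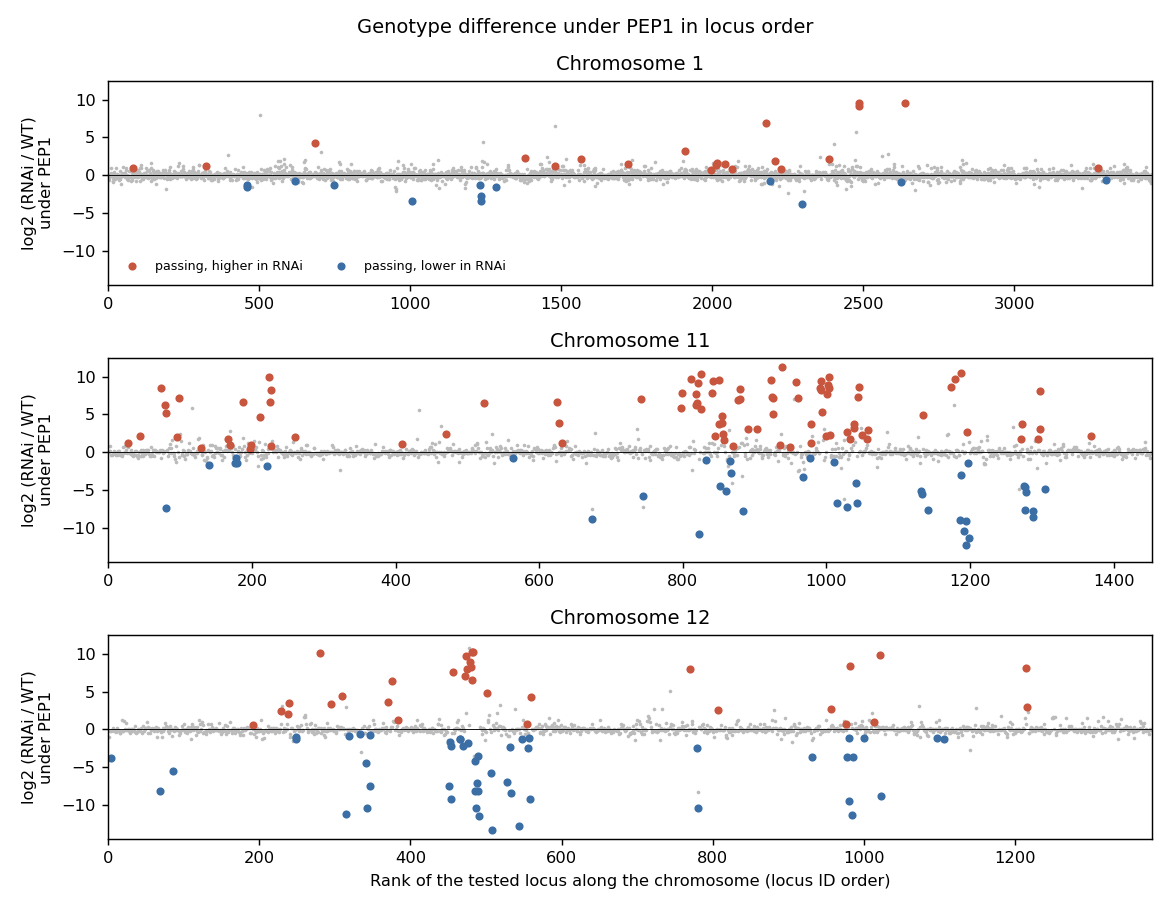
Log2 difference with PEP1, RNAi line over wild type (vertical) for each tested locus in ID order (horizontal) on chromosomes 1, 11 and 12. Passing loci lie mostly apart on chromosome 1, where 34 passed, and form blocks of both directions on chromosomes 11 and 12, where 131 and 80 passed.

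Features with a serial number in place of a locus ID passed more often than those with one. Of 959 such features tested, 80 passed (8.34%), 41 higher and 39 lower in the RNAi line. Under ethanol the share was 8.24%, against 3.62% of loci with an ID. The 97 and 89 features read in one genotype included 18 and 20 of them.

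Genes with a symbol were examined by list. Of 275 tested loci with a checked symbol, spread over 29 lists of root nutrition, hormone, defence, wall and marker genes, 11 passed (4%, against 2.65% of all features), 8 higher and 3 lower in the RNAi line. Their log2 differences ranged in size from 0.52 to 4.83. The median log2 difference of the 275 was 0.01. DESeq2 called 12 higher and 7 lower. Without both libraries numbered 2, 4 rose and 1 fell.

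Genes of jasmonate signalling and synthesis included 3 that were higher in the RNAi line. Of 15 tested jasmonate loci 3 rose (20%, against 1.52% of all features) and none fell, with a median log2 difference of 0.17 against 0.00 for all features. Under ethanol none passed as higher in the RNAi line. There 2 passed as lower, the reductase OPR1 (LOC_Os06g11290) and the JAZ gene TIFY6A. The list median under ethanol was -0.23, and 3 of the 15 had a positive log2 difference. TIFY11E (LOC_Os10g25230), a JAZ repressor, had 0.541, 1.49 and 0.739 CPM in the wild type and 4.33, 3.96 and 5.73 CPM in the RNAi line. That was a rise of 2.35 ± 0.43 on the log2 scale (SE, edgeR adjusted p = 0.0122). TIFY11D (LOC_Os10g25290), another JAZ gene, had 10.5, 9.21 and 11.97 CPM against 26.0, 38.9 and 23.4 CPM, a rise of 1.48 ± 0.34 (edgeR adjusted p = 0.0490).

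Allene oxide synthase AOS1 (LOC_Os03g55800), which acts early in jasmonate synthesis, had 27.3, 33.9 and 30.3 CPM in the wild type against 54.0, 66.2 and 55.9 CPM in the RNAi line. It rose by 0.95 ± 0.17 (edgeR adjusted p = 0.0122). The RNAi libraries were above the wild type libraries in each of these 3 genes. Under ethanol their log2 differences were 1.58 ± 0.44 for TIFY11E, 0.05 ± 0.35 for TIFY11D and 0.47 ± 0.17 for AOS1. None of the 3 passed there (edgeR adjusted p of at least 0.0855). The other JAZ genes of the TIFY11 subfamily missed the threshold under PEP1. Their log2 differences were 1.22 ± 0.30 for TIFY11B (LOC_Os03g08330; 44.6 to 48.2 CPM against 16.4 to 23.7 CPM, edgeR adjusted p = 0.0607), 1.17 ± 0.38 for TIFY11A (LOC_Os03g08310) and 0.98 ± 0.45 for TIFY11C (LOC_Os03g08320).

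All 5 TIFY11 genes were without overlap between the groups, as were 16% of all features, and their median log2 difference was 1.22, whereas under ethanol it was -0.17. TIFY3 (LOC_Os04g55920) and TIFY6A (LOC_Os08g33160), JAZ genes outside that subfamily, had -0.15 ± 0.18 and -0.08 ± 0.13. Neither did the later synthesis enzymes pass, with -0.08 ± 0.11 for allene oxide cyclase AOC (LOC_Os03g32314) and 0.05 ± 0.11 for the reductase OPR7 (LOC_Os08g35740), nor the receptors COI1A (LOC_Os01g63420; 0.15 ± 0.15) and COI1B (LOC_Os05g37690; 0.13 ± 0.20). TIFY11A, TIFY11B and TIFY11C are close neighbours in ID order, and similar copies could have shared reads. Without RNAi PEP1 replicate 2, TIFY11E passed (edgeR adjusted p = 0.0249), and AOS1 and TIFY11D did not (0.0578 and 0.188). TIFY11E and AOS1 also lost their calls without wild type PEP1 replicate 1 or 3 (edgeR adjusted p of at most 0.0761), and TIFY11D did so without any 1 of the 6 PEP1 libraries or replicate 2 or 3 of either ethanol group (at most 0.204).

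WRKY71 (LOC_Os02g08440), a transcription factor of rice defence, had 39.7, 43.7 and 42.9 CPM in the wild type and 113, 156 and 106 CPM in the RNAi line. It rose by 1.57 ± 0.23 (edgeR adjusted p = 0.00234), and it was the 1 of 5 named WRKY loci to pass (20%, against 2.65% of all features). It also passed without any 1 of the 12 libraries (edgeR adjusted p of at most 0.0188). Under ethanol its level was 40.8 ± 4.45 CPM in the wild type and 47.5 ± 14.7 CPM in the RNAi line (mean ± SD, n = 3). The interaction was 1.35 ± 0.31 with an edgeR adjusted p of 0.467. The other 4 WRKY loci had log2 differences of 0.12 to 1.27, the largest for WRKY24 (LOC_Os01g61080; 41.8 to 83.2 CPM against 21.4 to 29.8 CPM, edgeR adjusted p = 0.257). A further 24 loci written down as WRKY genes, whose symbols could not be checked, included 3 that rose (12.5%, against 1.52% of all features) and none that fell. Over all lists, 4 of 153 tested loci of that kind rose and none fell, so 2.61% passed, against 2.65% of all features. None passed among those of the jasmonate (0 of 5), ethylene (0 of 4), cytokinin (0 of 2) and other metal (0 of 4) lists.

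**Figure D4:**
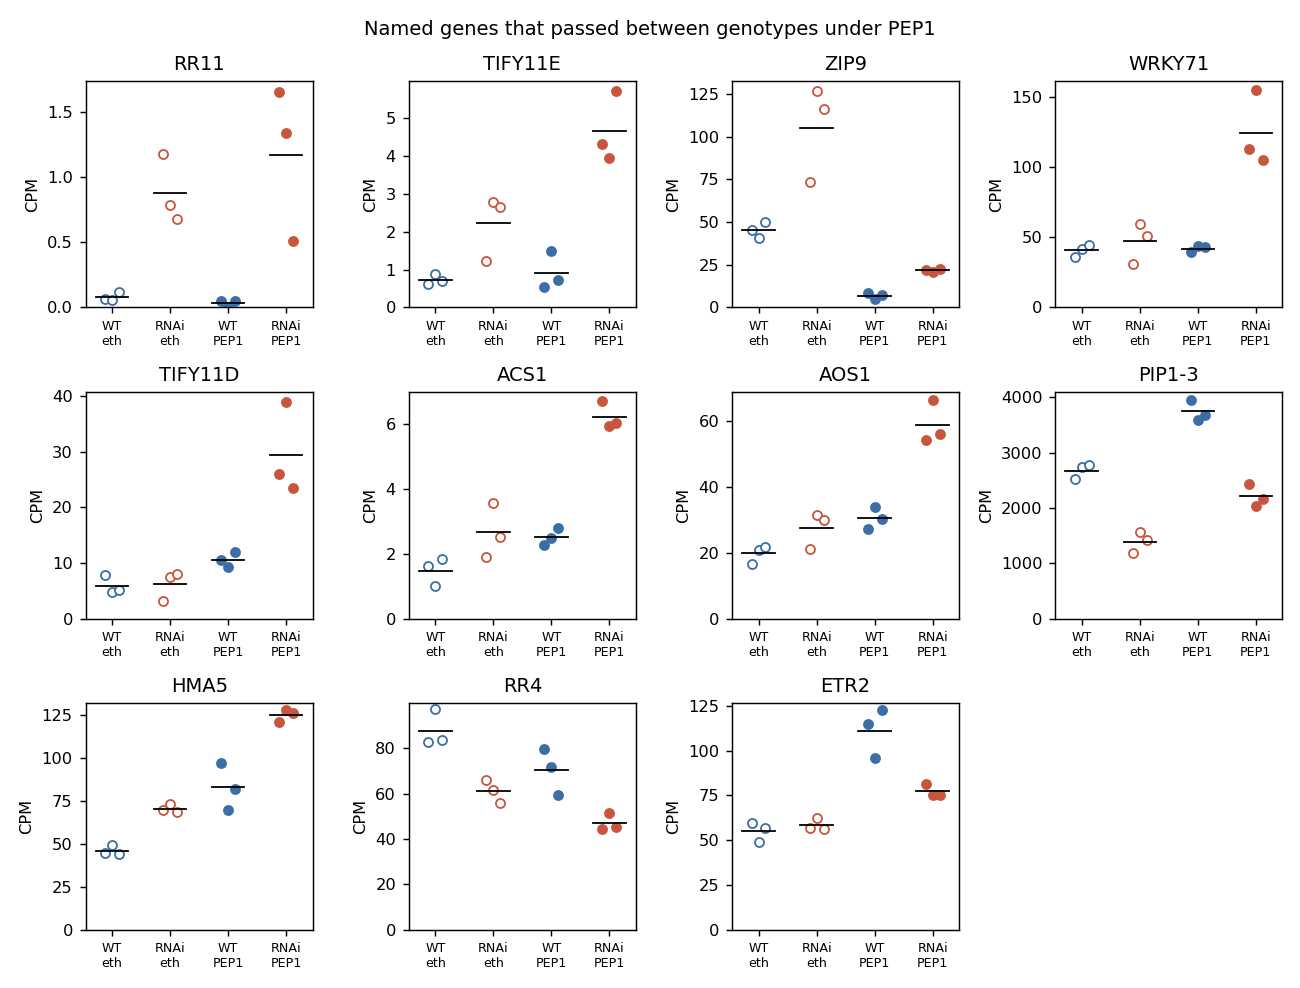
Level in CPM (vertical) of the 11 named genes that passed, in wild type (blue) and RNAi (red) libraries with ethanol (open) or PEP1 (filled), 1 point per library and a line at the mean of 3. In every panel the filled red and filled blue points do not overlap, as when RR4 had 44.6 to 51.7 CPM in the RNAi line and 59.6 to 79.9 CPM in the wild type.

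Ethylene genes moved in both directions. ACS1 (LOC_Os03g51740), a synthase of the ethylene precursor, had 2.26, 2.50 and 2.81 CPM in the wild type and 6.71, 5.94 and 6.06 CPM in the RNAi line, and it rose by 1.30 ± 0.29 on the log2 scale (edgeR adjusted p = 0.0387). ETR2 (LOC_Os04g08740), an ethylene receptor, had 115, 95.6 and 123 CPM against 81.1, 75.5 and 75.02 CPM and fell by 0.52 ± 0.12 (edgeR adjusted p = 0.0443). The remaining 6 of 8 loci did not pass, so 25% of the list passed, against 2.65% of all features. ACS2 (LOC_Os04g48850), of the same enzyme family as ACS1, had a log2 difference of 1.07 ± 0.32, and the receptors ERS1 (LOC_Os03g49500) and ERS2 (LOC_Os05g06320) had 0.03 ± 0.11 and -0.19 ± 0.15. ACS1 lost its call without any 1 of the 6 PEP1 libraries or RNAi ethanol replicate 3 (edgeR adjusted p of at most 0.195), and ETR2 did so without any 1 of the 6 RNAi libraries, wild type PEP1 replicate 1 or 3, or wild type ethanol replicate 3 (at most 0.186).

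Of 7 type-A response regulators of cytokinin, 1 fell and 1 rose in the RNAi line, and 6 had a negative log2 difference. Among all features 1.14% fell and 1.52% rose. RR4 (LOC_Os01g72330) had 79.9, 71.6 and 59.6 CPM in the wild type and 44.6, 51.7 and 45.2 CPM in the RNAi line, a fall of 0.58 ± 0.13 (edgeR adjusted p = 0.0446). RR2 (LOC_Os02g35180), RR6 (LOC_Os04g57720), RR9 (LOC_Os11g04720) and RR10 (LOC_Os12g04500) had log2 differences of -0.58 ± 0.23, -1.07 ± 0.30, -0.78 ± 0.28 and -0.99 ± 0.29. None of these 4 passed, and in each the groups did not overlap, as in 16% of all features. The median of all 7 was -0.58 under PEP1 and -0.63 under ethanol. RR4 lost its call without any 1 of the 6 RNAi libraries, wild type PEP1 replicate 1 or 2, or wild type ethanol replicate 3 (edgeR adjusted p of at most 0.22). RR9 and RR10 lie on chromosomes 11 and 12 and are near-identical copies, so reads could have been divided between them.

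RR11 (LOC_Os02g42060) went the other way from almost nothing. It had 1, 0 and 1 counts in the wild type PEP1 libraries and 34, 25 and 11 counts in the RNAi PEP1 libraries. The ratio was 33.1, with a 95% counting interval of 8.83 to 279 (exact Clopper-Pearson). Its fitted log2 difference was 4.83 ± 0.71 (edgeR adjusted p = 0.00265). Under ethanol the levels were 0.880 ± 0.264 CPM in the RNAi line and 0.0799 ± 0.0336 CPM in the wild type (mean ± SD, n = 3), and RR11 passed there as well (edgeR adjusted p = 0.0143). Of the 15 tested cytokinin loci 1 rose and 1 fell (13.3%, against 2.65% of all features), and DESeq2 called 2 higher and 3 lower. The activating enzyme LOG (LOC_Os01g40630) had a log2 difference of 0.74 ± 0.18 (edgeR adjusted p = 0.0663).

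A further cytokinin gene rested on 1 library. The cytokinin oxidase CKX2 (LOC_Os01g10110) had 58.1 CPM in RNAi PEP1 replicate 2 and at most 0.194 CPM in the other 5 libraries. Its fitted log2 difference of 8.002 ± 2.87 did not pass (edgeR adjusted p = 0.313).

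**Figure D5:**
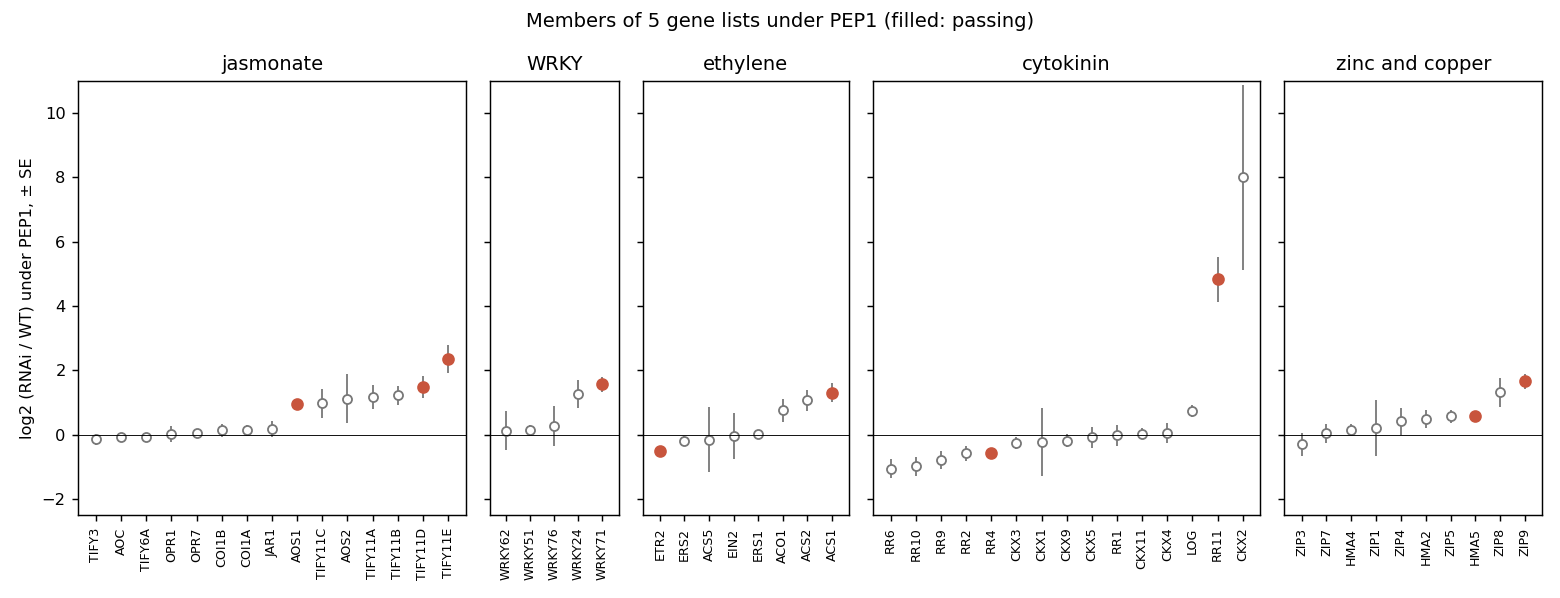
Log2 difference with PEP1, RNAi line over wild type (vertical, with SE) for each tested member of 5 gene lists (horizontal), with filled points for those that passed. TIFY11E at 2.35 and RR11 at 4.83 stand highest among the filled points, and CKX2, at 8.002, has the widest error and did not pass.

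Among metal transporters outside iron uptake, 2 of 10 rose (20%, against 1.52% of all features) and none fell. Their median log2 difference was 0.45, against 0.00 for all features. The zinc transporter ZIP9 (LOC_Os05g39540) had 8.66, 4.81 and 7.10 CPM in the wild type and 21.9, 20.9 and 22.2 CPM in the RNAi line, a rise of 1.66 ± 0.23 (edgeR adjusted p = 0.00215). Under ethanol it was higher in the RNAi line too, at 105 ± 28.2 against 45.4 ± 4.66 CPM (mean ± SD, n = 3, edgeR adjusted p = 0.0109). HMA5 (LOC_Os04g46940), a copper-transporting ATPase, had 97.3, 69.9 and 82.1 CPM against 121, 128 and 126 CPM and rose by 0.59 ± 0.12 (edgeR adjusted p = 0.0246). It passed under ethanol with a like difference, 0.61 ± 0.12 (edgeR adjusted p = 0.0154). ZIP5 (LOC_Os05g39560), the close neighbour of ZIP9, had 0.57 ± 0.20 and did not pass. HMA5 lost its call without any 1 of the RNAi PEP1 libraries, wild type PEP1 replicate 2 or 3, or RNAi ethanol replicate 3 (edgeR adjusted p of at most 0.109), whereas ZIP9 passed without any 1 library (at most 0.0126).

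Of 19 aquaporins 1 fell (5.26%, against 1.14% of all features) and none rose, with a median log2 difference of -0.02. PIP1-3 (LOC_Os02g57720) had 3953, 3595 and 3686 CPM in the wild type and 2436, 2032 and 2154 CPM in the RNAi line. It fell by 0.76 ± 0.18 (edgeR adjusted p = 0.0466), and under ethanol it was lower as well, at 1392 ± 188 against 2673 ± 139 CPM (mean ± SD, n = 3). None of the other plasma membrane members passed. Among them, log2 differences were 0.14 ± 0.18 for PIP1-1 (LOC_Os02g44630), 0.24 ± 0.35 for PIP1-2 (LOC_Os04g47220) and -0.04 ± 0.15 for PIP2-1 (LOC_Os07g26690). Over the 19 aquaporins the differences ranged from -0.76 to 0.56. The groups did not overlap in 6 of the 19, against 16% of all features, and 4 of these 6 were higher in the RNAi line. PIP1-3 lost its call without any 1 of the 6 PEP1 libraries or replicate 3 of either ethanol group (edgeR adjusted p of at most 0.186).

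The change from ethanol to PEP1 within each genotype uses some of the same libraries as the comparison of genotypes, so its values are set beside it as a description. The log2 change was 0.04 in the wild type and 1.39 in the RNAi line for WRKY71, and 0.83 and 2.26 for TIFY11D. For TIFY11E the changes were 0.30 and 1.07, and for AOS1 0.62 and 1.096. ETR2 had 1.01 in the wild type and 0.40 in the RNAi line. For ZIP9 the changes were -2.72 and -2.28, for HMA5 0.85 and 0.83 and for PIP1-3 0.49 and 0.67. None of the 11 named genes passed the interaction in edgeR, the lowest adjusted p being that of WRKY71.

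The iron uptake genes showed no passing difference. In edgeR 0 of 15 loci passed, 1 had an unadjusted p below 0.05, and DESeq2 and limma-voom each called 0. The median log2 difference was 0.18. The iron transporter gene IRT1 (LOC_Os03g46470) had 12.9, 3.33 and 20.6 CPM in the wild type and 15.9, 13.2 and 9.32 CPM in the RNAi line. Nicotianamine synthase NAS2 (LOC_Os03g19420), of phytosiderophore synthesis, had 95.3, 21.9 and 111 CPM against 74.0, 72.1 and 146 CPM. In both genes the groups overlapped. NAS2 can share reads with its near copy NAS1, so its level is uncertain.

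Phosphate genes likewise had 0 of 12 loci passing in edgeR, with 0 at an unadjusted p below 0.05 and 0 in DESeq2 and limma-voom. The phosphate transporter PT4 (LOC_Os04g10750) had the largest log2 difference among them, 2.24 ± 1.13, with 26.4, 5.82 and 30.2 CPM in the wild type and 112, 142 and 41.7 CPM in the RNAi line. In root meristem genes 0 of 6 passed in edgeR, at an unadjusted p below 0.05, in DESeq2 or in limma-voom. Each had a negative log2 difference, with a median of -0.48, as did the 6 markers of dividing cells, whose median was -0.14. The signs did not hold under ethanol. There 5 of 6 were positive in each list, with medians of 0.11 for root meristem genes and 0.19 for markers of dividing cells. The part of dividing cells in these values was not tested. In bulk tissue, fewer cells of a type and less RNA per cell cannot be told apart.

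Cellulose synthases, which build primary and secondary walls, had 0 of 11 loci passing in edgeR, with 2 at an unadjusted p below 0.05, 1 lower in DESeq2 and 0 in limma-voom. Their median log2 difference was -0.43. CESA3 (LOC_Os07g24190), of the primary wall, had 513, 521 and 531 CPM in the wild type and 367, 250.2 and 401 CPM in the RNAi line, without overlap (log2 difference -0.62 ± 0.18, edgeR adjusted p = 0.132). CESA4 (LOC_Os01g54620), of the secondary wall, had 71.8, 95.3 and 101.9 CPM against 43.6, 31.5 and 106 CPM, with overlap.

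Genes of diterpenoid phytoalexin synthesis were high in RNAi PEP1 replicate 2. Of 14 tested loci, 11 had their highest level of the 6 libraries there, and the summed level of the list was 1709 CPM, against 335 and 169.9 CPM in the other RNAi libraries and 102 to 251 CPM in the wild type. CPS2 (LOC_Os02g36210), a diterpene cyclase, had 308 CPM in that library and 1.46 to 4.13 CPM in the others. The list had a median log2 difference of 2.02, yet 0 of 14 passed in edgeR, with 2 at an unadjusted p below 0.05 and 0 in DESeq2 and limma-voom. The photosynthesis markers, none of which passed in edgeR, DESeq2 or limma-voom or had an unadjusted p below 0.05, had a median of 1.03 and were high in the same library. CAB1R (LOC_Os09g17740), a chlorophyll-binding protein gene, had 388 CPM there and 38.4 to 115 CPM in the other 5 libraries. Under ethanol the photosynthesis markers had a median log2 difference of -1.34, with 0 of 5 positive. Of the ethanol libraries, wild type replicate 2 had their highest summed level, at 285 CPM. The part of photosynthesis markers in the jasmonate, WRKY and diterpenoid values was not tested.

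The 1 feature that passed the interaction was LOC_Os12g13340 on chromosome 12, chosen here after its values were seen. Under PEP1 it had 49.3, 24.1 and 37.1 CPM in the wild type and 10.1, 5.14 and 6.29 CPM in the RNAi line, a fall of 2.36 ± 0.31 on the log2 scale (edgeR adjusted p = 0.00112). Under ethanol it had 1883, 1726 and 1872 CPM in the wild type and 15.5, 10.8 and 11.03 CPM in the RNAi line, a difference of -7.20 ± 0.37 (edgeR adjusted p = 2.62e-06). The genotypes did not overlap under either treatment. The difference under PEP1 was the smaller by 4.84 ± 0.43 (interaction, edgeR adjusted p = 0.00684). The interaction missed the threshold without wild type PEP1 replicate 3 (edgeR adjusted p = 0.0565), RNAi ethanol replicate 2 (0.0586) or RNAi ethanol replicate 3 (0.0642). Of the 4 groups, wild type with ethanol stood high and the other 3 stood low.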

How the data were processed

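RNA sequencing libraries of rice roots were analysed from 1 table of raw read counts per feature that the authors deposited, whole numbers with no normalization. No aligner, genome build, annotation, counting tool or strand setting is stated by the labels or the file, so counts of overlapping, antisense or near-identical genes are uncertain. Columns were matched to samples by their titles. All 12 libraries entered 1 fit of 4 group means in edgeR 4.0.16 (R 4.3.3), with TMM factors, the default filter on low counts and the quasi-likelihood test. Adjustment was by Benjamini-Hochberg over the 25602 features tested, at a threshold of 0.05. The SE is the absolute log2 difference divided by the square root of F. CPM are TMM-scaled. The fit was tested on simulated data. Libraries of a group were no duplicates (chi-square per degree of freedom of at least 15.0).

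For gene symbols, 492 pairs of a locus and a symbol were written by hand, over 488 loci. None of the locus IDs matched the RefSeq gene table (assembly ASM3414082v1). A pair gave a name only where that table lists the symbol on the same chromosome within 0.03 of its relative position, which held for 299. This check cannot tell neighbouring copies apart. The comparison, the lists and the alternatives were chosen with earlier results of these data known, and no list is independent evidence.

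Named were all passing loci with a checked symbol (up to 30), the 2 largest rises and 2 largest falls without a symbol that had at least 5 CPM in the higher group and no overlap, and members of described lists. Alternatives were other scalings, filters and tests (DESeq2 1.42.0, limma 3.58.1), the 6 PEP1 libraries alone, a replicate block, a 2-fold minimum and leaving out libraries. Both libraries numbered 2 were left out together as an alternative chosen after seeing the data. No sequence is shown, since none was used here.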

Additional observations from a re-analysis of the deposited data

Results flagged for a closer look

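LOC_Os12g13340 differed between the treatments in its genotype difference, by an interaction of 4.84 on the log2 scale (SE 0.43, edgeR adjusted p = 0.00684), and it was the 1 feature of 25602 to pass that test with all libraries. Without wild type PEP1 replicate 3, RNAi ethanol replicate 2 or RNAi ethanol replicate 3 the edgeR adjusted p was 0.0565, 0.0586 and 0.0642, and DESeq2 called 95 features. The wild type had 1827 ± 87.5 CPM under ethanol and 36.8 ± 12.6 CPM under PEP1, and the RNAi line had 12.4 ± 2.64 and 7.17 ± 2.58 CPM (mean ± SD, n = 3 each).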

How the results depend on the processing

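The features passing under PEP1 stayed within 1.5 times of 679 under other scalings and filters, limma-voom, a 2-fold minimum and the 6 PEP1 libraries alone (572). With the DESeq2 Wald test they were 1044, of which 616 were higher, with 1699 passing under ethanol and 95 in the interaction. Leaving out 1 library gave 449 to 757 passing under PEP1, 238 to 434 higher, 210 to 323 lower, 611 to 1046 under ethanol, 0 to 6 in the interaction and 405 to 519 shared by both treatments. The lowest counts under PEP1 came without wild type PEP1 replicate 1 (449) and, for features higher in the RNAi line, also without replicate 3 (258). Under ethanol the lowest count, 611, came without RNAi ethanol replicate 3. The interaction was passed by 0 features without wild type PEP1 replicate 3, RNAi ethanol replicate 2 or RNAi ethanol replicate 3, and by 6 without wild type ethanol replicate 1. Without both libraries numbered 2, 408 passed (218 higher, 190 lower), of which 395 were among the 679, and 1 jasmonate locus rose in place of 3. Deviations of same-numbered libraries had correlations of -0.47 to -0.08 between the PEP1 groups. With 3 libraries a group these values cannot settle whether the numbers pair libraries, and the labels do not say. Over all 6 pairs of groups the correlations ranged from -0.49 to 0.60. Between wild type ethanol and RNAi PEP1 they were 0.35, 0.23 and 0.60, each highest for the same number, a hint from the data and not the design. With the replicate block 571 features passed under PEP1 and 2 in the interaction.

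ZIP9, WRKY71, RR11 and the 4 features without a symbol passed in each of 21 alternatives, the 2-fold minimum not among them. The call was lost in 3 for TIFY11E, 4 for AOS1, 9 for HMA5, 10 for ACS1, 11 for PIP1-3, 12 for RR4 and 13 each for TIFY11D and ETR2, with no change of direction. The cause was not tested. Of the 679, 79 differed by less than 2-fold, among them AOS1, HMA5, PIP1-3, RR4 and ETR2, which a 2-fold minimum would also drop. Counts of 3 correspond to 0.140 to 0.178 CPM in a PEP1 library.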
